A study of Mus musculus with 22 samples.

Results

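The 9 genes described here encode receptors and signal transducers of the Hedgehog pathway: Ptch1, Disp1, Boc and Cdon, which handle the ligand at the membrane, Smo, which carries the signal inward, Gli1, Gli2 and Gli3, the transcription factors that act on it in the nucleus, and Sufu, which holds them back. The window of each gene ran from 5 kb before its start to 1 kb past its end (RefSeq annotation, GRCm38), and 597 CpGs in these windows, of 592579 on the autosomes, reached a coverage of 10 reads (counted per strand) in 5 or more samples of both conditions. The genes were listed by name, with no measured value in the rule, although earlier results of these data were known. DNA methylation was measured by reduced representation bisulfite sequencing (RRBS), in which MspI cuts DNA at CCGG sites and bisulfite converts unmethylated cytosines, so that the share of reads that keep a cytosine is the methylation level of that CpG.

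The samples were forebrains of wild-type C57BL/6 mouse embryos at E10.5, 6 of them control and 16 EtOH-exposed. Per the paper they were picked at random among embryos of similar size without apparent morphological defects, so embryos with defects are not covered. The mothers of the sampled embryos had received 2 subcutaneous injections at E2.5, 2 h apart, of saline (control) or of ethanol at 2.5 g/kg. Both groups thus share the injections and the handling. The embryos came from 3 control and 6 EtOH-exposed litters and from both sexes, but the sample labels give neither litter nor sex. Embryos were therefore treated as independent. The p-values of tests over embryos measure only the spread between these samples, and shared litters can make them too small. Those of the logistic test of reads, used below to call tiles and CpGs, do not measure that spread. All permutation tests over embryos were exact and two-sided. Each sample was a whole forebrain, so a different level can reflect a different mix of cells as well as a different level within cells. Methylation levels hold no marker transcripts, and the labelled tissue could not be checked against them.

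Hedgehog ligands are secreted proteins that pattern the ventral forebrain and the midline. In the absence of ligand, Ptch1 holds Smo inactive, and Sufu retains the Gli transcription factors, of which Gli3 and in part Gli2 are processed into repressors. Ligand binding to Ptch1, aided by the co-receptors Boc and Cdon, releases Smo, and full-length Gli2 then activates targets that include Ptch1 and Gli1 themselves. Disp1 acts in the sending cell, where it releases the lipid-modified ligand.

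Samples held 68126469 to 132488556 CpG calls in the control group and 89179413 to 216223892 in the EtOH-exposed group. Libraries stood apart from each other in 2 measures that are used below. The first was the level at 39343 tiles of 100 bp with a median level under 1%, which ranged from 0.672 to 1.52% in control and from 0.260 to 2.54% in EtOH-exposed samples (exact permutation p = 0.861). It was 2.41 to 2.54% in EtOH-exposed samples 4, 5 and 6 and 0.260 to 0.313% in EtOH-exposed samples 1, 2, 3, 9, 12 and 14. The second was a coefficient for the coverage of methylated MspI fragments, on a log2 scale relative to the control samples, where a negative value means fewer reads from methylated fragments. It was -0.23 to 0.37 in control and -2.88 to 0.11 in EtOH-exposed samples (exact permutation p = 0.0196), and 13 of 16 EtOH-exposed samples lay under the lowest control. The reference and the methylation term of the coefficient come from the control samples. The permutation did not recompute them, so this p is only a description.

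The genome windows of the 9 genes hold 12405 CpGs and 966 MspI sites. RRBS reached 1775 of these CpGs with at least 10 reads in some sample, and 172 had such a value in all 22 samples. The tested CpGs were unevenly spread, with 117 in Ptch1, 104 in Gli3, 94 in Cdon, 61 in Boc, 54 in Sufu, 43 in Smo, 30 in Gli1 and 5 in Disp1. The Gli2 window held the other 89. In the promoters, which reach from 1 kb before any transcription start site to 100 bp after it, 222 of 784 CpGs were tested. None of the 54 promoter CpGs of Gli1, the 42 of Disp1 and the 26 of Boc passed this limit, and nothing can be said of them at this depth.

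The sequences that carry the main results are shown here from the GRCm38 genome, 5′ to 3′ on the strand of the gene, with the tested CpGs in capitals. The first lies in exon 22 of 24 of Ptch1 (coding, chr13:63513561-63513815, minus strand), and covers the 2 adjoining tiles that were called lower. The second lies in exon 12 of 13 of Gli1 (coding, chr10:127332401-127332665, minus strand), where the only higher tile was called.
Ptch1 exon, chr13:63513601-63513800: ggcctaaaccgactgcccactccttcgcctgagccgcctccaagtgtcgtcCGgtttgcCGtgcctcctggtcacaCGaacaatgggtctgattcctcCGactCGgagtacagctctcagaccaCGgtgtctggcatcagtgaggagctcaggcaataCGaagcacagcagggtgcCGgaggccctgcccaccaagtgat
Gli1 exon, chr10:127332401-127332500: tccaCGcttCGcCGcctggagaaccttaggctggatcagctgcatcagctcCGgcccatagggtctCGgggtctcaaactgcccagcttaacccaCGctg

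RefSeq promoter sequences (GRCm38.p6, 250 bases before to 50 after a start site) were found for 7 of the 9 genes, and no entry was found for Gli1 and Boc. The promoters of Ptch1 and Gli3 are printed because most of their CpGs were measured, with the tested CpGs again in capitals. They are dense in CpGs, with 47 in that of Ptch1 (minus strand) and 39 in that of Gli3 (plus strand), beside a median of 7 over all 31396 promoters of the table.
Ptch1 promoter, chr13:63565686-63565985: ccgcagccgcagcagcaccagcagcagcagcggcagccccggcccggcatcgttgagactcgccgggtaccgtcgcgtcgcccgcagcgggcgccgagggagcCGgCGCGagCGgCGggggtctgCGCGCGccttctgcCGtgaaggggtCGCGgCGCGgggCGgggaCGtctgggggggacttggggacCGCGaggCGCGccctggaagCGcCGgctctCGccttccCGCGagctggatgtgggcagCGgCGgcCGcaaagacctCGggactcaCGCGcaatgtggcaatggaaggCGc
Gli3 promoter, chr13:15463473-15463772: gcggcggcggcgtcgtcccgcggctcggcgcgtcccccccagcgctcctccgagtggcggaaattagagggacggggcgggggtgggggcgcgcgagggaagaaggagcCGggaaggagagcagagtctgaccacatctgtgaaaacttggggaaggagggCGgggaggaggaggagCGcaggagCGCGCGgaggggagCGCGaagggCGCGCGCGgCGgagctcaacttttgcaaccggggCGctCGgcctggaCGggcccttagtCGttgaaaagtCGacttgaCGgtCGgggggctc
The Gli binding motif GACCACCCA, read on both strands, was in none of the promoter entries of the 7 genes and in 0.255% of all promoters, so that these windows hold no copy of exactly those letters.

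The promoters were almost unmethylated in both groups. All 222 tested promoter CpGs had a mean level under 20% over the 22 samples, and 30 of the 31 promoter tiles had a coverage-weighted control level under 2%. The exception was a tile of the Ptch1 promoter at 7.39% in control and 7.48% in EtOH-exposed samples. The differences of the promoter tiles, EtOH-exposed minus control, ran from -1.28 to 0.64 percentage points.

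A promoter level per embryo could be formed for the 4 genes with at least 3 promoter CpGs covered in all 22 samples. The Ptch1 promoter level over 32 CpGs was 0.541 to 1.49% in control embryos, with a median of 0.698%, and 0.164 to 2.47% in EtOH-exposed embryos, with a median of 0.731%. The groups overlapped, and 6 EtOH-exposed embryos lay below and 3 above all controls. The means differed by less than the spread, with 0.833% ± 0.363 (SD, n = 6) in control and 0.966% ± 0.763 (SD, n = 16) in EtOH-exposed embryos. Their difference was 0.133 ± 0.343 percentage points (SE, limma; exact permutation p = 0.691).

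The promoters of the transcription factors and of the co-receptor gave the same picture. The Gli2 promoter, for the main activator, was at 0.849% ± 0.396 and 1.05% ± 0.870 over 5 CpGs (exact permutation p = 0.631). The Gli3 promoter, for the main repressor, was at 1.02% ± 0.485 and 1.10% ± 0.825 over 19 CpGs (exact permutation p = 0.839). The Cdon promoter was at 0.821% ± 0.262 and 0.949% ± 0.799 over 10 CpGs (exact permutation p = 0.715). By limma with adjustment over all 5985 genes with a promoter level, 0 of the 4 genes passed an adjusted p of 0.05, beside 0.0167% of all genes, and 0 of the 4 had an unadjusted p under 0.05, beside 2.36%.

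The embryos did differ from each other in these promoters, and the set of libraries with the highest level at unmethylated tiles also had the highest promoter levels. EtOH-exposed samples 4, 5 and 6 had 1.81 to 3.36% in the 4 promoters beside 2.41 to 2.54% at the unmethylated tiles. EtOH-exposed samples 1, 2, 3, 9, 12 and 14 had 0.164 to 0.477% beside 0.260 to 0.313%. The sets other than that of samples 4, 5 and 6 overlapped in part. Control samples 3 to 6 had 0.387 to 1.11% beside 0.672 to 0.684%. EtOH-exposed samples 7, 10, 11, 13, 15 and 16 had 0.326 to 1.49% beside 0.834 to 1.10%. Control samples 1 and 2 with EtOH-exposed sample 8 had 0.931 to 1.74% beside 1.38 to 1.52%. With EtOH-exposed samples 4, 5 and 6 left out, the difference was negative in all 4 promoters, with -0.173 in Ptch1 and -0.260 percentage points in Gli3, and none was called by limma. The part of the library level in these differences was not tested further.

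**Figure D1:**
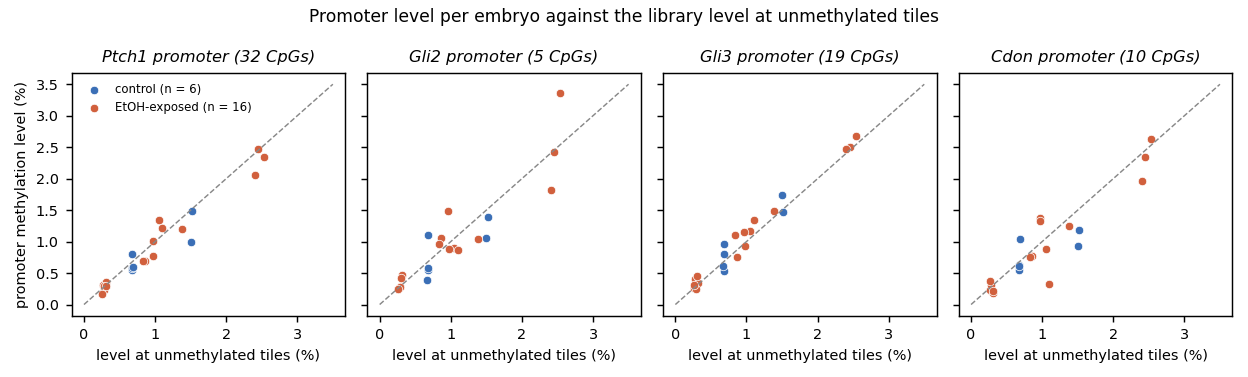
Promoter methylation level (vertical axis, %) of each embryo against the level of its library at unmethylated tiles (horizontal axis, %), for the 4 promoters with a value in all 22 samples; the dashed line marks equal levels. Points of both groups lie along the line, from 0.260% to 2.54% on the horizontal axis.

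Smo and Sufu had tested promoter CpGs, 11 and 8, but fewer than 3 in all 22 samples. The Smo tile with the smallest p lies at the start of its first exon (chr6:29735501-29735600) and was at 0.964% ± 0.482 (SD, n = 5) in control and 0.886% ± 0.714 (SD, n = 16) in EtOH-exposed embryos. The Sufu tile with the smallest p lies upstream of the gene (chr19:46395301-46395400), at 0.944% ± 0.571 (SD, n = 5) and 0.960% ± 0.861 (SD, n = 16). The differences of these means were smaller than the spread between embryos, whereas the coverage-weighted differences were -0.58 in Smo and 0.84 percentage points in Sufu. Neither tile was called.

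The gene bodies held nearly all CpGs with intermediate or high methylation. Of 352 tested body CpGs, 208 had a mean level under 20%, 55 had 20 to 80% and 89 were above 80%. The low CpGs sat near the gene starts and the high ones farther into the genes, as the plot of the tile levels along each gene shows. In Disp1 all 5 tested CpGs were above 80%, and in Gli1 16 of 30 were intermediate.

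Of the 112 tiles of 100 bp that overlap the windows, 3 were called by the logistic test of methylated and unmethylated reads (q under 0.01 and coverage-weighted levels 10 or more percentage points apart, EtOH-exposed minus control throughout). That was 2.68% of the tiles, beside 1.14% of all 114430 autosomal tiles (1.08% called lower and 0.0516% called higher). The 2 lower tiles adjoined each other in Ptch1, the higher tile lay in Gli1, and no tile was called in Smo, Sufu, Gli2, Gli3, Disp1, Boc or Cdon. All 3 were among the 17 tiles with an intermediate mean level of 20 to 80%, a class that made up 15.2% of the tiles here and 10% of all tiles, and in which 10.4% of all tiles were called. With the methylated-fragment coefficient as a covariate 2 tiles were called, both higher, and over all tiles 116 were lower and 289 higher, against 1240 and 59 without it. The median difference of the 112 tiles was -0.04 percentage points, beside -0.13 over all tiles. Of the 17 intermediate tiles, 14 had a lower weighted level in EtOH-exposed samples, beside 83.5% of all tiles of that class. Their median difference was -1.58 percentage points, beside -3.55 in that class over all tiles.

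This test counts reads and estimates no spread between embryos: 42.3% of all autosomal tiles had a p under 0.05 by it. With the spread of each tile estimated (overdispersion F test), 0 of the 112 tiles were called, as of all 114430 tiles, and 3 had an unadjusted p under 0.05, beside 5.77% of all tiles. By limma on log2 ratios of the reads 0 were called, here and over all tiles, and again 3 had an unadjusted p under 0.05, beside 4.45%.

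**Figure D2:**
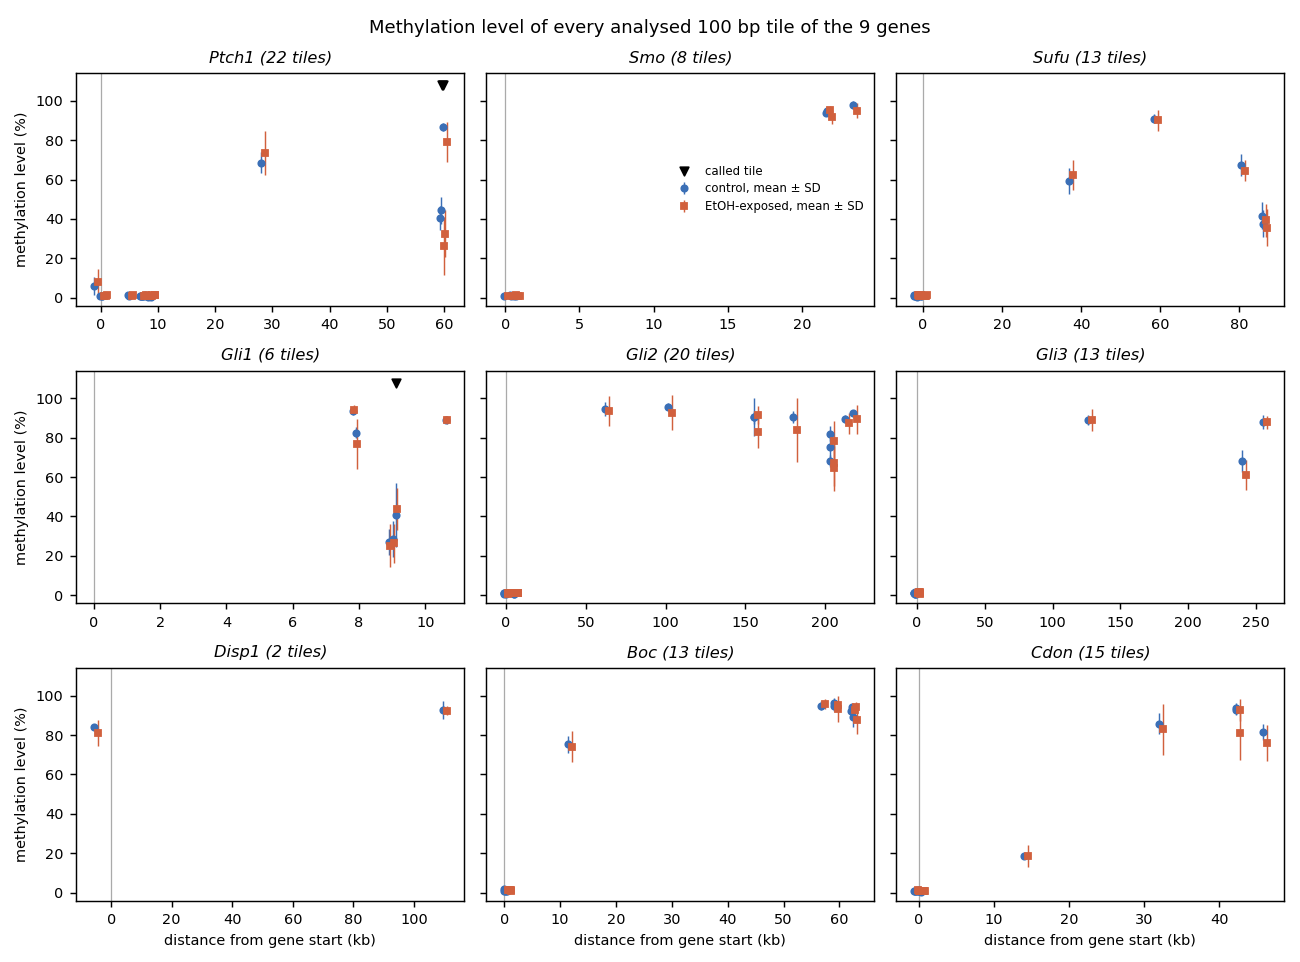
Methylation level (vertical axis, %) of each analysed tile against its distance from the gene start (horizontal axis, kb), as mean ± SD of the control and of the EtOH-exposed embryos, drawn slightly apart; triangles mark called tiles. Tiles near the start are close to 0% in 7 genes, and the called tiles are centred 59709 and 59809 bp into Ptch1 and 9128 bp into Gli1.

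Ptch1, the receptor that holds Smo inactive and is itself a target of the pathway, held both tiles called lower. In the tile chr13:63513701-63513800 the 5 control embryos with a value had 48.5, 37.8, 40.6, 43.1 and 32.3%, and control sample 2 had none. The 16 EtOH-exposed embryos ranged from 8.39 to 47.7%, with a median of 23.6%. The groups overlapped: 9 EtOH-exposed embryos lay under the lowest control and the other 7 within the control range.

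Weighted by coverage, the tile stood at 40.3% in control and at 25.6% in EtOH-exposed samples, which gives -14.7 percentage points (q = 9.91e-38 by the logistic test). Over embryos the group means were 40.5% ± 6.05 and 26.4% ± 14.7 (SD, n = 5 and 16). The difference of these means did not pass a test over embryos (exact permutation p = 0.0563; unadjusted p of the overdispersion F test = 0.082). The tile next to it, chr13:63513601-63513700, was similar, with 44.5% ± 6.87 (SD, n = 5) and 32.6% ± 11.8 (SD, n = 16) (exact permutation p = 0.0508).

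Of the 9 EtOH-exposed embryos under the lowest control, 7 had libraries with few reads from methylated fragments. The 4 EtOH-exposed samples with a coefficient under -2, samples 4, 5, 6 and 14, had 8.39 to 9.34% in the tile chr13:63513701-63513800. The 3 with a coefficient between -2 and -1, samples 2, 8 and 9, had 17.6 to 25.6%. The 3 whose coefficient was within the range of the controls, samples 7, 10 and 13, had 38.4 to 47.7%, beside 32.3 to 48.5% in control embryos.

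The correspondence was not complete. EtOH-exposed samples 11 and 16 had coefficients of -0.72 and -0.42 and levels of 18.5 and 14.4%, whereas EtOH-exposed samples 1 and 3, at -0.45 and -0.50, had 37.1 and 39.4%. EtOH-exposed samples 12 and 15, at -0.27 and -0.28, had 46.9 and 41.2%. With the coefficient as a covariate the difference was 0.37 percentage points in this tile and -1.36 in the tile next to it, and neither was called. Without EtOH-exposed samples 4, 5 and 6 the differences were -7.12 and -6.93 percentage points, with only the 7 EtOH-exposed samples whose level at unmethylated tiles was near that of the controls they were -6.12 and -5.79, and the tiles were not called in either case. Since the coefficient itself differed between the groups, ethanol exposure and the recovery of methylated fragments cannot be told apart here.

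**Figure D3:**
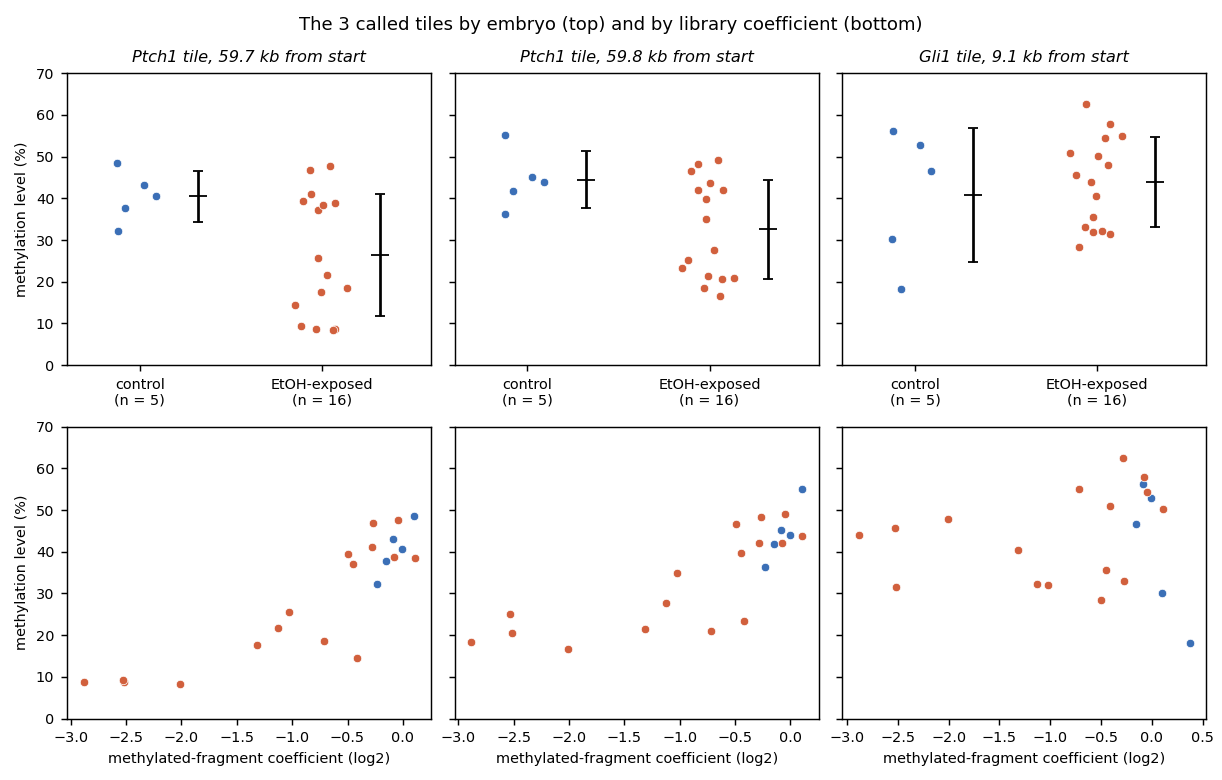
Methylation level (vertical axes, %) of the 3 called tiles in each embryo, by group with mean ± SD (top row) and against the methylated-fragment coefficient of the library (bottom row, log2 scale); blue points are control and orange points EtOH-exposed embryos. In both Ptch1 tiles the samples with a coefficient under -2 are among the lowest, at 8.39 to 25.1%.

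Single CpGs of the exon moved together. In the 180 bp from the first to the last tested CpG of the exon, all 9 CpGs were lower in EtOH-exposed samples, by 9.89 to 21.6 percentage points, and 8 of them were called by the logistic test. Their control levels varied from 27.9 to 67.2% and their EtOH-exposed levels from 12.1 to 54.9%, so that neighbouring CpGs of 1 exon differed more from each other than the groups did. These CpGs share reads and are not separate observations. Over the windows of all 9 genes, 13 of 597 CpGs were called, 10 lower and 3 higher, which is 2.18% beside 1.42% of all autosomal CpGs (1.34% lower and 0.0743% higher). The overdispersion F test called 0 of them, as of all 592579 CpGs, and 31 of 597 had an unadjusted p under 0.05, beside 6.19% of all CpGs.

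**Figure D4:**
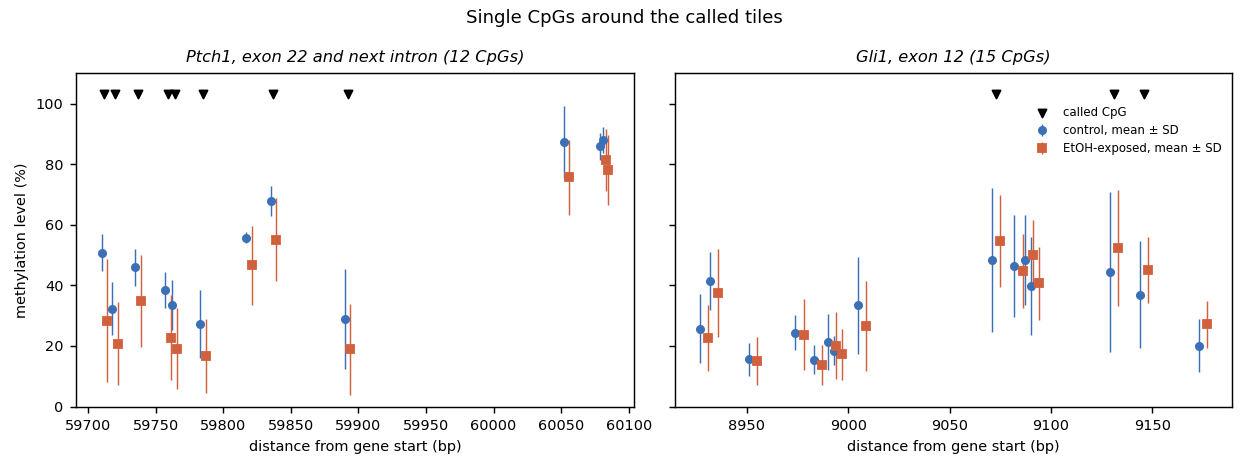
Methylation level (vertical axis, %; mean ± SD over embryos) of single CpGs around the called tiles of Ptch1 and Gli1 against the distance from the gene start (horizontal axis, bp); triangles mark called CpGs. In the Ptch1 exon the EtOH-exposed mean is below the control mean at each of the 9 CpGs between 59712 and 59892 bp.

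The gene body level of Ptch1 was formed per embryo over 21 CpGs with a value in all 22 samples. It was 15.6 to 17.3% in control embryos, with a median of 16.7%, and 9.67 to 17.9% in EtOH-exposed embryos, with a median of 15.03%. The groups overlapped, with 11 of 16 EtOH-exposed embryos under the lowest control and EtOH-exposed sample 14 lowest. The group means were 16.5% ± 0.699 and 14.9% ± 1.81 (SD, n = 6 and 16), a difference of -1.65 ± 0.751 percentage points (SE, limma). The exact permutation test gave an unadjusted p of 0.0399, and the limma p adjusted over all 7912 genes was 0.435. The difference was -0.85 without CCGG CpGs (unadjusted limma p = 0.230), -1.17 with the coefficient as a covariate (unadjusted limma p = 0.180) and -1.09 percentage points with only the EtOH-exposed samples near the controls at unmethylated tiles (unadjusted limma p = 0.0902). On the log2 ratio scale the unadjusted limma p was 0.0665. The difference was -3.48 with a minimum of 20 reads (unadjusted limma p = 0.0348), -1.11 with 5 reads (0.0301), -1.71 with CpGs covered in 5 or more samples of both conditions (0.0319) and -1.73 without EtOH-exposed samples 4, 5 and 6 (0.0465).

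The 21 CpGs lay in 2 stretches of the gene. In a split made after the values were seen, 4 of the 21 CpGs lay 59.8 to 60.1 kb from the gene start, 1 in exon 22 and 3 in the intron after it, and all 4 were lower, by 4.48 to 12.9 percentage points. Their mean was 82.3% ± 3.604 (SD, n = 6) in control and 72.5% ± 9.501 (SD, n = 16) in EtOH-exposed embryos. The other 17 CpGs, within 9.2 kb of the start, were at 1.04% ± 0.769 and 1.295% ± 1.046. That level left little room for a decrease, so the split cannot tell whether the lower level was local. Apart from these 2 stretches, a coding tile 28409 bp into Ptch1 was higher in EtOH-exposed samples by 7.66 percentage points and was not called, at 68.6% ± 5.24 (SD, n = 5) and 73.3% ± 11.3 (SD, n = 10).

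No gene body level was called in any of the 6 genes that had one (limma, adjusted p under 0.05), as in 0% of all 7912 genes. Ptch1 was the only 1 of the 6 with an unadjusted p under 0.05, beside 10.8% of all genes, and the exact permutation test adjusted over all genes also called 0. In the control embryos the body levels were ordered as Disp1 at 90.9% ± 8.94, Cdon at 87.8% ± 3.58, Sufu at 56.3% ± 4.75, Ptch1 at 16.5% ± 0.699, Gli2 at 12.1% ± 1.19 and Gli3 at 1.02% ± 0.646 (SD, n = 6). Disp1 and Cdon did not differ beyond their spread. The covered CpGs lay at different places in each gene, those of Gli3 near its start.

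**Figure D5:**
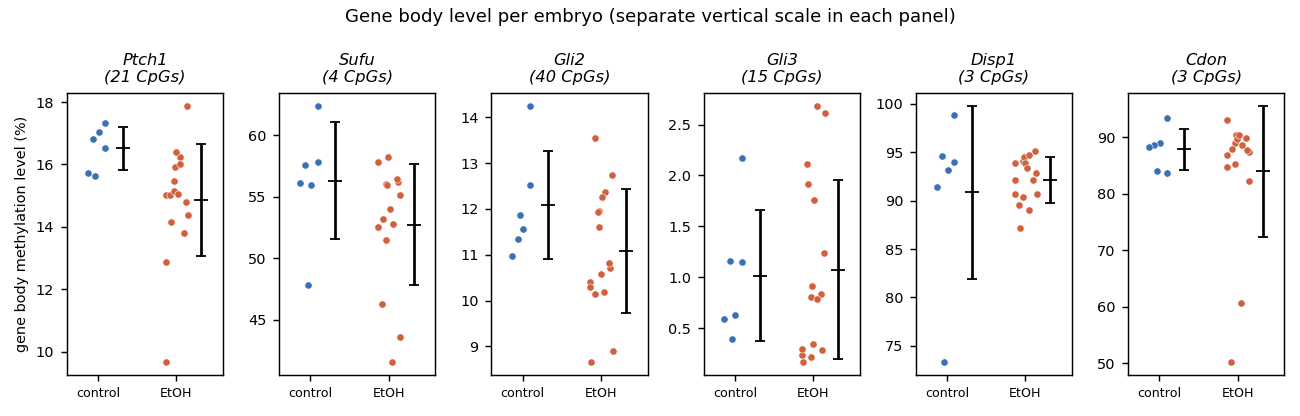
Gene body methylation level (vertical axes, %, with a separate scale in each panel) of each control and EtOH-exposed embryo for the 6 genes with at least 3 body CpGs covered in all 22 samples; bars are mean ± SD. The groups overlap in every panel, and single low embryos appear in Ptch1 (9.67%), Disp1 (73.3%) and Cdon (50.2%).

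Sufu, which retains the Gli factors in the cytoplasm, had 4 tiles with intermediate methylation, all in introns, with differences of -3.37 to 1.05 percentage points. Its body level over 4 CpGs was 47.8 to 62.4% in control embryos, with a median of 56.9%, and 41.6 to 58.2% in EtOH-exposed embryos, with a median of 53.6%. The 3 EtOH-exposed embryos under the lowest control were samples 4, 5 and 6, at 43.6, 41.6 and 46.3%. The difference was -3.57 ± 2.24 percentage points (SE, limma), with an exact permutation p of 0.141. Without those 3 samples it was -1.51, without control sample 1 it was -2.34, with a minimum of 5 reads -0.20 and with the coefficient as a covariate 0.72. It was larger without control sample 6, at -5.26. With only samples 1 to 6 of each condition, which keep EtOH-exposed samples 4, 5 and 6, it was -6.66 (unadjusted limma p = 0.0526). The replicate number as a block gave an unadjusted limma p of 0.0197, but no pairing of same-numbered samples was seen.

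Gli1, a direct target that amplifies the signal, held the only tile called higher. In the tile chr10:127332401-127332500 the 5 control embryos with a value had 30.2, 18.1, 46.5, 52.8 and 56.2%, and control sample 6 had none. The EtOH-exposed embryos ranged from 28.4 to 62.5%, with a median of 44.8%. The groups overlapped almost entirely, with 14 of 16 EtOH-exposed embryos inside the control range.

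The coverage-weighted levels were 32.7 and 44.1%, a difference of 11.4 percentage points (q = 8.80e-24 by the logistic test). Over embryos the group means were 40.8% ± 16.1 and 43.9% ± 10.8 (SD, n = 5 and 16), which differ by 3.08 percentage points (exact permutation p = 0.624). The call rested on control sample 2, without which the weighted difference was 2.48 percentage points (q = 0.152), and it was also lost without EtOH-exposed sample 15, at 9.77. The next 2 tiles, which cover the rest of the exon, stood at 26.6 and 26.0% in control samples and differed by -1.44 and -1.49 percentage points.

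In this tile too the levels differed between sets of libraries. Control samples 1 and 2 and EtOH-exposed sample 8, which share a level at unmethylated tiles of 1.38 to 1.52%, had 18.1 to 31.9%. EtOH-exposed samples 7, 10, 11, 13, 15 and 16 had 50.2 to 62.5%, and control samples 3 to 5 had 46.5 to 56.2%. The weighted difference was 20.2 percentage points with only the 7 EtOH-exposed samples whose level at unmethylated tiles was near that of the controls, and 15.3 with the methylated-fragment coefficient as a covariate. At single CpGs of Gli1, 3 in this exon were called higher and 1 in the last exon lower, from 73.0 to 53.8%.

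Gli2, the main activator, had intermediate methylation in its intron 8. In the tile chr1:118850301-118850400 control embryos had 68.4 to 87.8%, with a median of 74.1%, and EtOH-exposed embryos 40.1 to 82.6%, with a median of 67.9%. The lowest were EtOH-exposed samples 4, 6, 14 and 5, at 40.1, 51.9, 53.5 and 54.9%, and the groups overlapped. The group means were 75.4% ± 7.02 and 66.96% ± 11.5 (SD, n = 6 and 16) (exact permutation p = 0.110), with a weighted difference of -3.25 percentage points. The Gli2 body level over 40 CpGs was 12.1% ± 1.19 and 11.1% ± 1.35 (exact permutation p = 0.122), and 9 of 16 EtOH-exposed embryos were under the lowest control. This difference of -1.01 percentage points was -0.58 without control sample 2, -0.04 with the coefficient as a covariate and 0.15 with only the EtOH-exposed samples near the controls at unmethylated tiles. It was larger with CpGs covered in 5 or more samples of both conditions, at -1.62 (unadjusted limma p = 0.0686). With only samples 1 to 6 of each condition, which keep EtOH-exposed samples 4, 5 and 6, it was -1.83 (unadjusted limma p = 0.0116). The replicate number as a block gave an unadjusted limma p of 0.0189, but no pairing of same-numbered samples was seen.

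Gli3, the main repressor, was near 0 around its start and methylated far into the gene. The tile with the smallest p, in intron 1 (chr13:15464201-15464300), was at 0.744% ± 0.596 and 0.863% ± 0.721 (SD, n = 6 and 16). The only intermediate tile, in an intron 241128 bp from the start, was at 68.1% ± 5.65 and 60.9% ± 7.72 (SD, n = 5 and 16) (exact permutation p = 0.0696). The body level over 15 CpGs, all low, differed by 0.06 percentage points.

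Disp1, which releases the ligand, had 2 tiles, both highly methylated. The intron tile (chr1:183111401-183111500) was at 92.7% ± 4.45 (SD, n = 6) in control and 92.5% ± 2.36 (SD, n = 16) in EtOH-exposed embryos (exact permutation p = 0.872). The tile with the smallest p (chr1:183226501-183226600) straddles the upstream border of the window, with no tested CpG inside it, and was at 84.2% ± 1.33 (SD, n = 5) in control and 81.1% ± 6.85 (SD, n = 16) in EtOH-exposed embryos (exact permutation p = 0.332). Its body level over 3 CpGs was 73.3 to 98.8% in control embryos, where sample 6 was lowest and the other 5 were at 91.4% or more, and 87.2 to 95.1% in EtOH-exposed embryos. The difference was 1.25 percentage points with control sample 6, -2.26 without it and 2.83 without control sample 2.

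Boc, a co-receptor, had 13 tiles with weighted differences of -1.003 to 1.466 percentage points, and too few CpGs in all 22 samples for a body level. With CpGs covered in 5 or more samples of both conditions, its body level differed by -0.88 ± 0.341 percentage points (SE, limma, unadjusted p = 0.0168, adjusted p = 0.270). With a minimum of 5 reads the difference was -0.60 (unadjusted limma p = 0.439). Its tile with the smallest p, in intron 1 (chr16:44557901-44558000), was at 0.844% ± 0.898 and 0.832% ± 0.806 (SD, n = 5 and 15). A single intronic CpG at chr16:44494706 was called lower, from 56.9 to 27.3%, with values in 5 control and 6 EtOH-exposed embryos. The control embryos had 55.6 to 64.3%, EtOH-exposed samples 10, 11 and 16 had 52.6, 60.0 and 53.2%, and EtOH-exposed samples 4, 5 and 6 had 21.1, 16.3 and 13.6%. The EtOH-exposed embryos thus fell into 2 sets, and the low set was 3 of the 4 libraries with coefficients under -2.

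Cdon, the other co-receptor, had the largest SD of the body level over all 22 embryos, whereas among control embryos that of Disp1 was larger (8.94 against 3.58). Its body level over 3 CpGs was 83.7 to 93.3% in control embryos, with a median of 88.4%, and 50.2 to 93.1% in EtOH-exposed embryos, with a median of 87.9%. EtOH-exposed samples 6 and 5 were lowest, at 50.2 and 60.6%, and the other 14 were at 82.2% or more. The difference was -3.84 ± 4.69 percentage points (SE, limma), with an exact permutation p of 0.528. It was -1.59 without sample 6, -2.29 without sample 5, 0.69 without EtOH-exposed samples 4, 5 and 6 and 4.89 with the coefficient as a covariate. With CpGs covered in 5 or more samples of both conditions it was -4.35 (unadjusted limma p = 0.0728). With only samples 1 to 6 of each condition, which keep EtOH-exposed samples 4, 5 and 6, it was -12.3 (unadjusted limma p = 0.0699). The replicate number as a block gave an unadjusted limma p of 0.0451, but no pairing of same-numbered samples was seen. Its tile with the smallest p, at the gene start (chr9:35421501-35421600), was at 1.14% ± 0.719 in control and 0.748% ± 0.995 in EtOH-exposed embryos (SD, n = 5 and 16; exact permutation p = 0.441). The weighted difference was -1.28 percentage points, the unadjusted p of the overdispersion F test was 0.00855 (q = 0.843), and 11 EtOH-exposed embryos lay under and 2 over all controls. A tile of a coding exon 42523 bp into Cdon was at 92.6% ± 2.24 and 80.9% ± 13.5 (SD, n = 6 and 11), was not called, and had no value in EtOH-exposed samples 4, 5, 6, 14 and 16. Its unadjusted exact permutation p was 0.0439, the only 1 of the 112 tiles under 0.05. The tile was named after its values were seen, and no share over all tiles is available for this test.

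Elsewhere in the genome, the body levels most like that of Cdon over the 22 samples were those of Vmn2r59 (Pearson r = 0.913, 3 CpGs), Nfe2 (r = 0.910, 8 CpGs) and Zfp775 (r = 0.910, 10 CpGs). In each of them EtOH-exposed samples 5 and 6 were below the other 20 samples, and without these 2 samples r was 0.274, 0.066 and 0.356. The likeness therefore rests on 2 libraries that share other properties, and it is given as a description.

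The spread between embryos of the body level, taken as the distance from the group median, did not differ by limma in any of the 6 genes (0 of 6 called, beside 0% of all genes; 0 of 6 with an unadjusted p under 0.05, beside 4.55%). The exact permutation test adjusted over all genes also called 0. For control and EtOH-exposed embryos the mean distance was 0.600 and 1.19 percentage points in Ptch1, 2.72 and 6.07 in Cdon and, in the other direction, 5.41 and 1.98 in Disp1, where control sample 6 stands apart. Single libraries set much of these differences. That of Ptch1, 0.590, was 0.301 without EtOH-exposed sample 14, and that of Disp1, -3.42, was -0.01 without control sample 6. That of Cdon, 3.35, was 1.16 without EtOH-exposed sample 6, 1.88 without sample 5 and -0.91 without samples 4, 5 and 6. With CpGs covered in 5 or more samples of both conditions it was 3.95 (limma, unadjusted p = 0.00534, adjusted p = 0.632). In tiles, the SD was larger in EtOH-exposed than in control embryos in 97 of 112 (86.6%), beside 77.5% of all tiles. Of these 97, 61 had a mean level under 20%, where the values of the embryos also differ with the level of their library at unmethylated tiles.

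The other genes of the pathway gave 1 called tile. Of 39 further genes in 7 roles, from the ligands Shh, Ihh and Dhh to targets such as Foxa2 and Nkx2-2, all had at least 1 tile, and 1 of their 370 gene tiles was called, or 0.27%, beside 1.14% of all tiles. It lay in intron 3 of Scube2, a secreted protein that helps release the ligand (chr7:109854401-109854500). Control embryos had 68.9, 84.6, 83.2, 81.4 and 81.1%, and EtOH-exposed embryos 46.3 to 86.2% with a median of 69.1%. The weighted difference was -11.2 percentage points, and the group means were 79.8% ± 6.30 and 66.6% ± 12.5 (SD, n = 5 and 16) (unadjusted exact permutation p = 0.0359; q of the overdispersion F test = 0.851).

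By role, the ligand genes had differences of -5.06 to 2.30 percentage points over 47 tiles, the genes for ligand maturation and release -11.2 to 4.91 over 86 and the genes for ligand binding -2.60 to 0.53 over 33. The cilium and transduction genes had -6.42 to 1.55 over 71 tiles, the kinases -5.96 to 1.73 over 55, the genes for degradation of Gli proteins -2.12 to 1.34 over 21 and the targets -0.65 to 3.14 over 57. Of 97 promoter tiles in this list, 95 had a control level under 5%. No promoter level (0 of 14) and no body level (0 of 24) was called by limma, and 0 and 3 of these had an unadjusted p under 0.05, beside 2.36% and 10.8% of all genes. The 3 were Prkaca, Grk2 and Lrp2, with body level differences of -3.55, -3.53 and -3.34 percentage points, named after their values were seen.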

How the data were processed

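RRBS libraries of 6 control and 16 EtOH-exposed E10.5 forebrains were analysed. The authors trimmed reads with Trim Galore 0.3.3 and aligned them with BSMAP 2.90 per the labels, and deposited 1 file per sample with the read count (coverage) and the percent of methylated reads at each cytosine of a CpG, per strand. The files use GRCm38 coordinates: all 2809601 autosomal CpGs covered fell on a CpG of that genome. Median coverage per position was 13 to 26 in control and 12 to 28 in EtOH-exposed samples.

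Methylated reads were taken as coverage times the level, rounded to whole counts. Strands with at least 10 reads were kept and added per CpG, and CpGs were pooled in 100 bp tiles with at least 2 CpGs, in at least 5 samples per condition. Autosomal tiles and CpGs were compared by a logistic likelihood-ratio test with Benjamini-Hochberg adjustment over all of them (call: q under 0.01 and 10 percentage points), after the study's own tile limits. Promoter and gene body levels per embryo, over CpGs covered in all 22 samples (at least 3 per gene), were compared by limma 3.58.1 (R 4.3.3; adjusted p under 0.05 over all genes) and by exact permutation of 74613 splits (20349 where 5 controls had a value). The spread was tested by limma on the distances from the group median. The steps ran in Python 3.11.15 and were tested on simulated data. A tile at 50% with 46 reads, the lowest median among these tiles, has a 95% Wilson interval of 36.1 to 63.9%; reads carry no molecular identifiers, so such intervals cover counting error only. The methylated-fragment coefficient is the slope of log2 coverage of 6416 MspI fragments, relative to the control mean, on their control methylation, with fragment length, GC content and CpG number as further terms.

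The members and lists were chosen with earlier results of these data known. In each gene the text names the called tile that differed most, or, with none called, that with the smallest p; in the wider pathway list it names called tiles, and for the gene with the most variable body level the 3 genes most correlated with it. Other tiles and CpGs were added after their values were seen. Alternatives covered the test, read minimums of 5 and 20, complete tiles, unweighted means, another threshold, CCGG sites, the coefficient as covariate, library groups, the replicate number as a block, single samples left out and, added after the data were seen, the exclusion of EtOH-exposed samples 4, 5 and 6. Sex chromosomes were left out. Litter and sex are not tied to samples in the labels.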

Additional observations from a re-analysis of the deposited data

Results flagged for a closer look

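The lowest of 4 to 10 samples lay far from the others, by Dixon's criterion, in 2 of the 23 groups of values examined, where chance gives about 1 in 20. The Disp1 body level over 3 CpGs was 73.3% in control sample 6, against 91.4 to 98.8% in the other 5 control embryos. The Scube2 intron tile was at 68.9% in control sample 1, against 81.1 to 84.6% in the other 4 control embryos with a value.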

How the results depend on the processing

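The number of called tiles in the 9 genes, 3 as reported, was 2 to 3 when single samples were left out, beside 0.868 to 1.59% of all tiles. It was 0 under the overdispersion F test, under limma on log2 ratios, with a limit of 20 percentage points (0.0883% of all tiles), among the 39 tiles with a value in all 22 samples (0.585%) and with a minimum of 20 reads (86 tiles, 0.726%). The 3 called tiles are not among those 39, since each lacks a value in a control sample, so that count does not test them again. With unweighted means the number was 3, all lower (both Ptch1 tiles and the Cdon tile from 35464001), beside 1.71% of all tiles. Without CCGG CpGs it was 2 of 87, both lower, beside 0.586%, so that neither setting called the Gli1 tile. It was 8 of 142 with a minimum of 5 reads, beside 1.63% of all tiles. With only the 7 EtOH-exposed samples near the controls at unmethylated tiles it was 2 of 110, beside 0.924%. Of these, 1 was lower and 1 higher, and neither was a Ptch1 tile of exon 22. Without EtOH-exposed samples 4, 5 and 6 the number was 1, in Gli1, beside 0.39%. With the coefficient as a covariate it was 2, both higher (Gli1, 15.3 percentage points, and the Ptch1 tile from 63545001, 12.7), beside 0.354% of all tiles. There the Ptch1 tile from 63513701 moved to 0.37 percentage points, and the Sufu tile from 46395301 to -0.33, and the latter stood at -0.11 without EtOH-exposed samples 4, 5 and 6. Of the CpGs, 0 were called by the F test and 2 of 439 with a minimum of 20 reads, beside 0.986% of all CpGs. With the replicate number as a block (samples 1 to 6 of each condition) 6 of 93 tiles were called, all lower, beside 4.76% of all tiles, against 2 and 3.07% without the replicate block. Same-numbered samples did not deviate together (r = -0.137, 0.173, -0.104, -0.150, -0.107 and 0.098), so no pairing by number was seen. A weak shared effect could be missed by these values. Promoter, body and spread counts were 0 under every alternative run. Among these values, none of them called, 13 of 42 promoter, 12 of 58 body and 7 of 24 spread differences changed sign under alternatives other than leaving out 1 sample. The cause was not tested. Depth limits what the embryo levels cover, since 172 CpGs of the windows had a value in all 22 samples.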
